A study of Mus musculus with 3 samples.

Results

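Described here are 71 of the 2060 small intestinal neurons measured in *Ednrb*-/- mice, 70 of them with *Tac1*, the gene of the substance P precursor. They were chosen by measured values of the same cells: *Nos1* at 0, at least 4 of the 9 genes *Lrp1b*, *Lrrc7*, *Itga8*, *Htr2b*, *Galntl6*, *Cacna1e*, *Vldlr*, *Kcnip4* and *Tac1* above 0, and fewer than 3 of the 8 genes *Krtdap*, *Ffar2*, *Ffar3*, *Plcxd3*, *Dmkn*, *Pkp1*, *Tmem132c* and *Stac2* above 0. The cells that met all 3 conditions are called members here. Levels of the genes in these conditions describe the choice and are no finding.

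Excitatory motor neurons of the myenteric plexus lie between the muscle layers of the gut and drive muscle contraction. They release acetylcholine, made by choline acetyltransferase (*Chat*), together with tachykinins such as substance P. Inhibitory motor neurons instead use nitric oxide, made by the product of *Nos1*, and peptides such as VIP, and relax the muscle.

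One single-cell RNA library came from each of 3 *Ednrb*-KO mice at postnatal day 14, labelled as strain C57BL/6 and as a model of Hirschsprung disease, in which the distal bowel lacks ganglia. All 3 lack the endothelin receptor type B gene and carry a tdTomato reporter switched on by *Wnt1*-driven Cre, which marks cells of neural crest descent and not neurons alone. Sorted tdTomato-positive cells came from the muscle and plexus layer (LMMP) of the whole small intestine, so regions were pooled within a mouse. There was 1 condition, and wild-type cells were not analysed here, so nothing below compares genotypes.

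The 3 libraries held 354, 1050 and 656 neurons, and mouse 1 stood apart. Cells other than members had a median of 3686.5 UMIs (unique molecular identifiers, 1 for each captured RNA molecule) in mouse 1, 9540 in mouse 2 and 9668 in mouse 3. In mouse 1, 233 of the 12193 genes compared were at 0, and 91 genes with at least 50 UMIs there were at 0 in both other libraries. One cell barcode was shared by mice 1 and 2 and 1 by mice 2 and 3, and 0 members carried either of them. *Ednrb* itself was read in 60.0%, 56.7% and 32.3% of members and in 42.2%, 69.2% and 60.2% of the other cells, but the sources used here do not say which stretch of the gene the allele removes, so these UMIs check nothing about the genotype.

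Members were a small share of the neurons in each mouse. They numbered 10 in mouse 1 (2.82%, 95% exact binomial interval 1.36% to 5.13%), 30 in mouse 2 (2.86%, 1.94% to 4.05%) and 31 in mouse 3 (4.73%, 3.23% to 6.64%). The mean over mice was 3.47% ± 1.09 (SD, n = 3), and the 3 intervals, which cover counting error only, overlapped. Members had a median of 4346, 10425.5 and 6855 UMIs in mice 1, 2 and 3, so those of mouse 3 were shallower than the other neurons of that mouse.

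Few members carried the whole set of genes that chose them. Of the 71, 30 had exactly 4 of the 9 genes, 19 had 5, 9 had 6, 9 had 7, 3 had 8 and 1 had all 9. In mouse 1, 8 of the 10 members had 4 and the other 2 had 5. *Tac1* was read in 70 of 71 members and *Cacna1e*, the pore chain of R-type calcium channels, in 60. *Itga8*, an integrin chain that binds the matrix protein nephronectin, was the rarest, in 23 members (32.4%, 21.8% to 44.6%), and *Htr2b*, a serotonin receptor, was in 37 (52.1%, 39.9% to 64.1%). Only 8 members carried both, so most members of this set did not have the 3 genes *Tac1*, *Itga8* and *Htr2b* together.

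The genes of the rule also differed between mice. *Lrrc7*, a scaffold protein of the postsynaptic side, was in 0 of 10 members of mouse 1, in 50% of those of mouse 2 and in 38.7% of those of mouse 3. *Cacna1e* was in 50%, 90.0% and 90.3%, and *Itga8* in 10.0%, 23.3% and 48.4%. *Galntl6*, of the family that starts mucin-type O-glycosylation, went the other way, with 70.0%, 50% and 51.6%. *Tac1* (GRCm38 chr6:7554879-7565834, plus strand) summed to 22.5, 26.7 and 18.5 UMIs per 10000 UMIs in members against 1.84, 2.63 and 2.45 in all other cells. Between single members it spanned a wide range, in mouse 2 from 0.715 over a median of 11.5 to 87.1 UMIs per 10000, and in mouse 3 from 0 over 8.26 to 68.5.

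**Figure D1:**
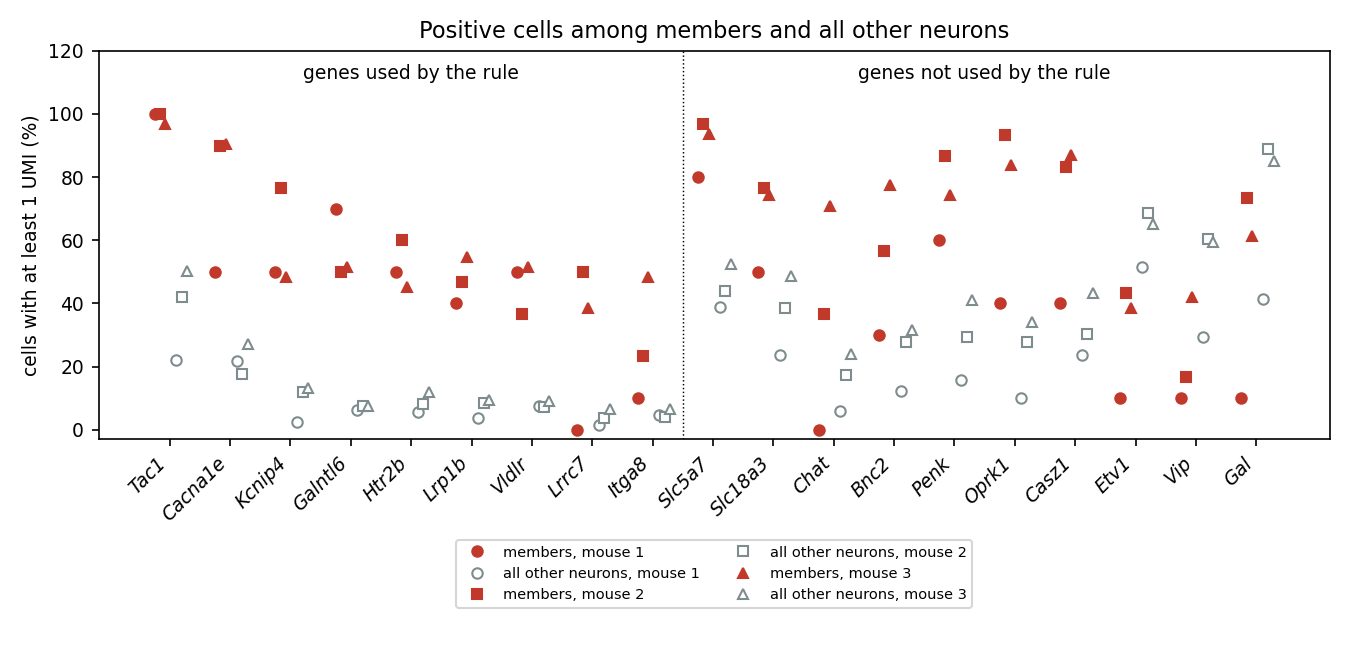
Share of cells with at least 1 UMI (y axis, %) for 19 genes, in members (filled red) and all other neurons (open grey), with 1 point for each of mice 1 (circles), 2 (squares) and 3 (triangles). The genes left of the dotted line chose the members. Right of it, *Slc5a7* was in 80.0% to 96.7% of members and *Chat* in 0% to 71.0%.

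Markers of excitatory neurons differed in how many members carried them, and *Chat* was read in 33 members and not in the other 38. *Slc5a7*, the choline transporter that feeds acetylcholine synthesis (chr17:54273590-54299034, minus strand), took no part in the choice and was in 80.0%, 96.7% and 93.5% of members, against 39.0%, 43.8% and 52.5% of the other cells. *Slc18a3*, which loads acetylcholine into vesicles, was in 50%, 76.7% and 74.2% of members against 23.5%, 38.6% and 48.8%. *Chat* and *Bnc2*, a zinc finger gene, are given as markers with the label but were not in the rule. In mouse 1, *Chat* was in 0 of 10 members, which allows up to 30% of such cells with a *Chat* UMI at that depth and sets no limit on cells expressing the gene. *Bnc2* was there in 30% of members and 12.2% of the other cells, at 0.656 against 0.331 UMIs per 10000.

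In mice 2 and 3, *Chat* was in 36.7% and 71.0% of members and *Bnc2* in 56.7% and 77.4%. *Chat* was in 17.5% and 23.8% of all other cells and in 7.17% and 16.2% of the *Nos1*-positive cells, whose transmitter differs, at median depths of 10423 and 9871 UMIs. Members of mice 2 and 3 lay above the *Nos1* cells, but the rule left those cells out, so this describes the choice in part. In mouse 2, *Chat* was in 50%, 26.3%, 25% and 60.0% of cells meeting the other 2 conditions with 2, 3, 4 or 5, and 6 to 9 of the 9 genes. Mouse 3 gave 34.4%, 38.9%, 63.2% and 83.3%. Of the 71 members, 27 had *Chat* and *Bnc2*, 6 had *Chat* alone, 17 had *Bnc2* alone and 21 had neither. At least 1 UMI of *Chat*, *Slc5a7* or *Slc18a3* was in 70 of 71.

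Because members were chosen on the cells compared, and because an exact paired test over 3 mice cannot go below a two-sided p of 0.25, the comparisons that follow carry no test. A gene is called higher or lower where its summed UMIs per 10000 differed at least 2-fold, the same way, in each of the 2 libraries with at least 20 members, mice 2 and 3. The genes of the rule are left out of the calls. Against all other cells, 562 of 12193 genes (4.61%) were higher in members and 121 (0.992%) were lower, and the median gene lay 0.18 higher on the log2 scale. Of these, 279 higher genes were in at least 25% of members and 74 lower genes in at least 25% of the other cells. In mouse 1, whose members took no part in the calls, 207 of the 279 were higher as well, 110 of them 2-fold, and 31 were at 0, while 41 of the 74 lower genes were lower.

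Several measures of RNA quality moved with the members. Mitochondrial genes held a median of 3.06%, 5.20% and 5.66% of members' UMIs in mice 1, 2 and 3, against 2.74%, 2.69% and 2.72% in the other cells. Of the members, 0 of 10, 16 of 30 and 16 of 31 lay above 5%. The non-coding nuclear transcript *Malat1* stood at 547, 565 and 927 UMIs per 10000 in members and at 512, 324 and 429 in the other cells. Genes over 100 kb long made up 43.5% of the higher genes, 7.44% of the lower ones and 15.8% of all genes compared, and 6 of the 9 genes of the rule are that long. These values go with every call below, and their part in the calls was not tested. Among cells with at most 5% mitochondrial UMIs, 624 genes were higher, 316 of them among the 562, and 52 were lower, 27 of them among the 121. This filter left fewer than 20 members in each of mice 2 and 3.

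The gene with the largest smaller fold of the 2 mice was *Hgf*, which encodes hepatocyte growth factor. It stood at 0.219, 0.666 and 0.592 UMIs per 10000 in members of mice 1, 2 and 3 and at 0.0743, 0.0398 and 0.0745 in the other cells, 16.8-fold higher in mouse 2 and 7.95-fold in mouse 3. These folds rest on 20 and 14 UMIs in members. *Penk*, the proenkephalin gene from which opioid peptides are cut (chr4:4133531-4138819, minus strand), was the most abundant of the leading genes in mice 2 and 3. It stood at 3.72, 15.4 and 10.2 UMIs per 10000 in members and at 1.70, 1.49 and 1.40 in the other cells, which is 2.19, 10.4 and 7.30 times higher, and the members lay above in every mouse. One cell held 27.6% of members' *Penk* UMIs in mouse 2 and another held 39.7% in mouse 3, yet *Penk* was read in 60.0%, 86.7% and 74.2% of members. *Pcsk1*, a protease that cuts such peptide precursors, was 7.02-fold and 5.13-fold higher in mice 2 and 3, and also higher in mouse 1 (1.09 against 0.344 UMIs per 10000).

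Among the other leading genes were surface and guidance molecules. *Csmd3* was in 64.8% of members and 14.9% of other cells, at 0.874, 2.47 and 3.42 UMIs per 10000 in members against 0.142, 0.238 and 0.463. *Unc5d* and *Unc5c*, receptors for the guidance cue netrin, were 12.6-fold and 7.17-fold, and 5.33-fold and 6.25-fold higher in mice 2 and 3. *Calcrl*, the receptor chain for CGRP and adrenomedullin, was 7.56-fold and 6.12-fold higher, and *Lrfn5*, a synaptic adhesion protein, 5.74-fold and 4.99-fold. *Gda*, guanine deaminase, was the leading gene that was strongest in mouse 1, with 4.59 UMIs per 10000 against 1.33 and 1.14 in members of the other mice and 0.109 to 0.155 in other cells. *Agbl4*, *Lingo2* and *Ryr1* were at 0 in the 10 members of mouse 1, although each was at least 4.53-fold higher in both other mice. *Ank1* and the nuclear RNA *Neat1* complete the leading genes, and *Neat1* was not higher in mouse 1 (0.219 against 0.230). *B230334C09Rik* (chr3:158067186-158076112, minus strand) was also among them, but it lies 6779 bases from *Lrrc7* on the same strand, and whether its UMIs come from *Lrrc7* transcripts was not tested.

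**Figure D2:**
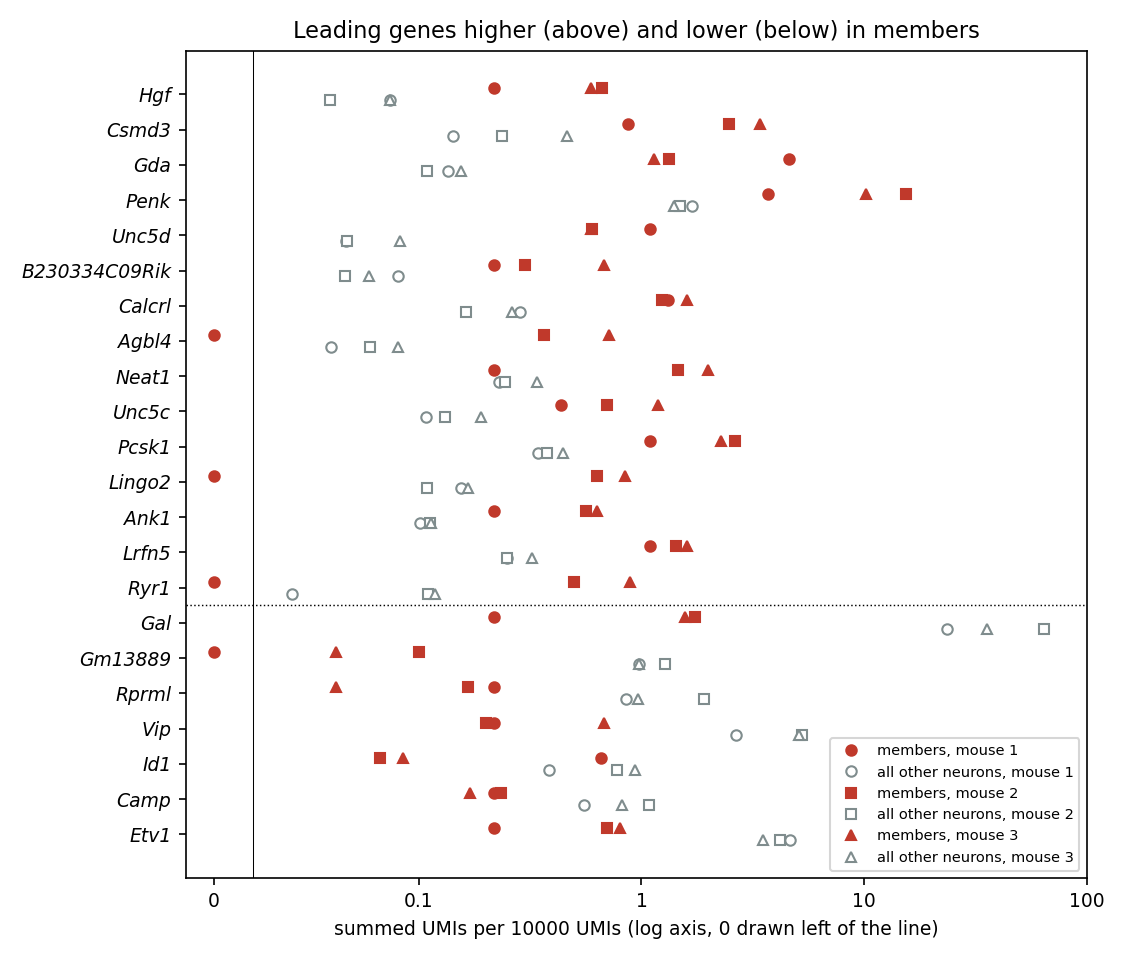
Summed UMIs per 10000 UMIs (x axis, logarithmic, 0 drawn left of the vertical line) of the 15 leading higher genes above the dotted line and 7 of the 8 leading lower genes below it, in members (filled red) and all other neurons (open grey) of mice 1 (circles), 2 (squares) and 3 (triangles). *Agbl4*, *Lingo2* and *Ryr1* were at 0 in the members of mouse 1.

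The leading lower genes included neuropeptides and a transcription factor. *Gal*, the gene of galanin, stood at 0.219, 1.73 and 1.56 UMIs per 10000 in members and at 23.5, 64.5 and 35.5 in the other cells, 37.3-fold lower in mouse 2 and 22.7-fold lower in mouse 3. It was nevertheless read in 73.3% and 61.3% of members there, so a share of positive cells says little for a gene this abundant in the other cells. Single other cells of mice 2 and 3 reached 2263 and 882 *Gal* UMIs per 10000. The median other cell stood at 5.42 and 3.77, against 1.51 and 1.46 for the median member. The folds of the sums are thus larger than the gap between median cells. *Vip* stood at 0.219, 0.200 and 0.676 against 2.65, 5.28 and 5.11 UMIs per 10000, with members lower in every mouse. *Etv1*, a transcription factor gene, was 5.99-fold and 4.37-fold lower. Most of the neurons of mice 2 and 3 carried *Nos1*, which members lack by the rule. Against other cells without *Nos1*, the mean log2 difference over mice 2 and 3 was -2.62 for *Gal* and -2.17 for *Vip*, and for *Etv1* it was -0.81, less than a 2-fold difference. *Camp*, which encodes an antimicrobial peptide, was 4.63-fold and 4.83-fold lower, on 7 and 4 UMIs in members. *Gm13889*, *Rprml* and *Id1* were read so rarely in members of mice 2 and 3 (3 and 1, 5 and 1, and 2 and 2 UMIs) that their folds are not given. In mouse 1, *Id1* was not lower (0.656 against 0.385 UMIs per 10000).

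Acetylcholine genes were higher in part. Of the 8 cholinergic genes compared, 3 were higher and 0 lower, with a median log2 difference of 1.27 beside 0.18 for all genes. *Slc5a7* was 4.35-fold and 4.22-fold higher in mice 2 and 3 and 2.50-fold in mouse 1. *Ache*, which breaks acetylcholine down, was 2.81-fold and 2.16-fold higher, and *Colq*, its collagen anchor, 8.91-fold and 3.37-fold. *Chat* fell short of the call, at 0.500 against 0.264 UMIs per 10000 in mouse 2 and 1.90 against 0.393 in mouse 3. Of 8 acetylcholine receptors compared, *Chrm2*, a muscarinic receptor, was the 1 called higher, while the nicotinic chain *Chrna3* was 1.61-fold and 1.47-fold higher and not called.

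Opioid genes were higher on both the peptide and the receptor side. Of 8 tachykinin and opioid genes compared, 3 were higher and 0 lower, with a median log2 difference of 1.53. Besides *Penk*, these were the kappa receptor *Oprk1*, at 0.874, 4.50 and 4.14 UMIs per 10000 in members against 0.331, 0.856 and 1.02, and the mu receptor *Oprm1*, 3.59-fold and 3.66-fold higher in mice 2 and 3. *Pdyn*, the prodynorphin gene, was at 0 in all members and in 3.92% and 5.92% of the other cells of mice 2 and 3. The tachykinin receptors *Tacr1* and *Tacr3* had too few UMIs to be compared. Among other peptide genes, *Calca* was higher (0.233 and 0.634 against 0.0487 and 0.0826 UMIs per 10000), whereas *Calcb* and *Grp* were lower, and *Calca* was at 0 in members of mouse 1. The *Calca* levels rest on 7 and 15 UMIs in members, of which single cells held 3 and 10.

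Genes of inhibitory motor neurons were mostly lower than in all other cells, most of which carried *Nos1* in mice 2 and 3. Of 11 compared, 6 were lower (*Vip*, *Gal*, *Npy*, *Cartpt*, *Ass1* and *Aldh1a3*) and 2 higher, with a median log2 difference of -1.48. *Cartpt*, a peptide gene, was 5.95-fold and 2.91-fold lower, with 66.1% and 56.9% of members' UMIs in 1 cell of each mouse. *Ass1*, which makes the arginine precursor, was 2.42-fold and 3.55-fold lower. *Npy* gave 2 UMIs in the members of mouse 2 and 0 in those of mice 1 and 3. The 2 exceptions were *Col25a1*, a membrane collagen, and *Gch1*, the first enzyme in making tetrahydrobiopterin, a cofactor of nitric oxide synthase. *Gch1* stood at 3.28, 2.27 and 1.44 UMIs per 10000 in members against 0.662, 0.515 and 0.470, so members were higher in every mouse although they were chosen without *Nos1*.

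Sodium and potassium channel genes were among those higher in members, beside the 4.61% of all genes that were. Of 14 sodium and HCN channel genes, 7 were higher and 0 lower (median log2 difference 1.22): the pore chains *Scn2a*, *Scn3a*, *Scn8a* and *Scn9a*, the auxiliary chains *Scn2b* and *Scn3b*, and the leak channel *Nalcn*. *Scn3a* stood at 1.75, 2.23 and 4.61 UMIs per 10000 in members against 1.51, 1.03 and 1.41. Of 8 genes of fast A-type potassium channels, 5 were higher (*Kcnd2*, *Kcnd3*, *Dpp6*, *Kcna4* and *Kcnc4*), and *Dpp6*, an auxiliary chain, was so in each mouse (2.81-fold, 2.47-fold and 2.70-fold). Of 16 other potassium channel genes, 2 were higher, among them *Kcnma1*, the calcium-activated BK channel, at 1.96-fold, 2.44-fold and 3.57-fold. Among 13 voltage-gated calcium channel genes outside the rule, the auxiliary chains *Cacnb2* and *Cacna2d2* were higher, and both were at 0 in members of mouse 1.

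Receptors for fast transmitters and synaptic genes leaned the same way. Of 17 glutamate and GABA receptor genes, 6 were higher, among them *Gria1*, *Gria2*, *Grin1*, *Grik1* and *Grm7*, and 0 lower. *Gria2*, a chain of AMPA receptors, was in 90.0%, 93.3% and 100% of members against 37.8%, 55.2% and 61.6% of other cells, and its level was 2.36-fold, 2.65-fold and 4.73-fold higher. *Grik1*, a kainate receptor chain, was 5.88-fold, 3.62-fold and 4.12-fold higher. Of 24 postsynaptic scaffold and adhesion genes, 7 were higher, among them *Shank1*, *Dlgap1* and *Nlgn1*, with *Nlgn1* at 2.65-fold, 2.65-fold and 3.29-fold. *Htr7* was the 1 higher gene of 4 serotonin receptors compared, and *Htr3a*, the ion channel receptor, was close in both groups (0.866 and 0.761 against 0.970 and 0.991 UMIs per 10000 in mice 2 and 3).

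Axon guidance gave the highest count of the lists examined, but not the largest share. A-type potassium channels (5 of 8) and sodium and HCN channels (7 of 14) had larger ones. Of 23 guidance genes, 9 were higher and 0 lower, beside 4.61% of all genes higher. They were the secreted cues *Slit1*, *Slit2*, *Slit3* and *Sema3d*, and the receptors *Unc5c*, *Unc5d*, *Plxnc1*, *Epha5* and *Epha6*. *Epha5*, an ephrin receptor, was the most abundant, at 13.3, 8.83 and 8.41 UMIs per 10000 in members against 4.46, 3.39 and 3.14. *Slit2* was 3.27-fold, 2.16-fold and 2.52-fold higher, whereas *Slit1*, *Slit3*, *Sema3d* and *Epha6* were at 0 in members of mouse 1. Of 16 integrin chains and ligands outside the rule, *Itga4* was higher in mice 2 and 3 and not in mouse 1 (0.219 against 0.432), and *Npnt*, the nephronectin gene, was not called. Smaller counts came from GalNAc-transferases (4 of 11 higher), purine and peptide receptors (2 of 14, *P2ry1* and *Npy1r*), cadherins (2 of 17), reelin and LDL receptor genes (1 of 8, *Reln*, on 3 UMIs in members of each of mice 2 and 3) and growth factor and endothelin receptors (1 of 7, *Gfra2*, which binds neurturin).

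**Figure D3:**
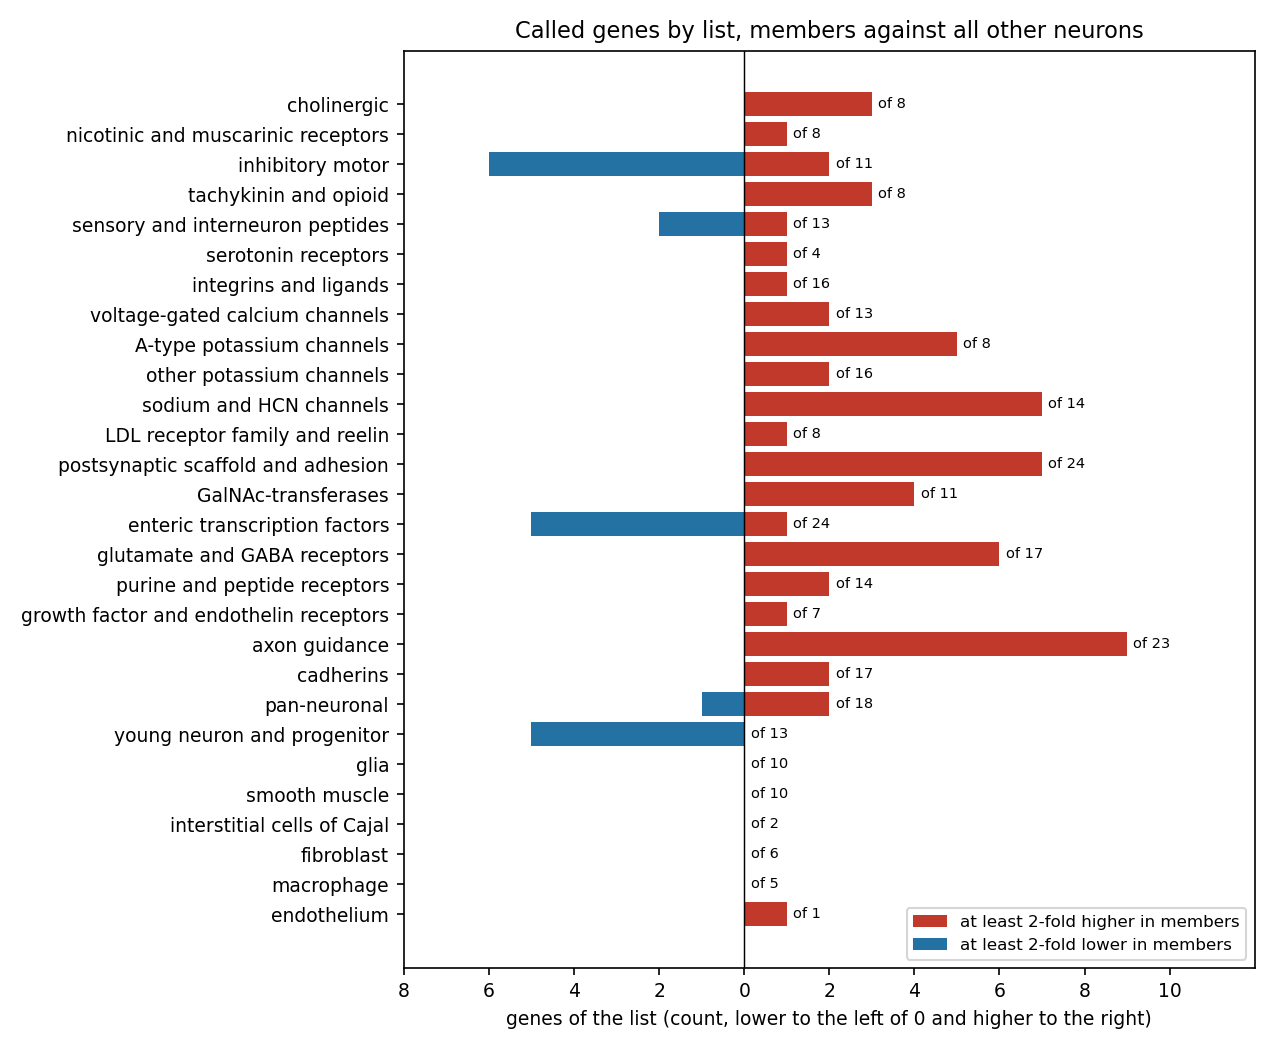
Number of genes in each list (x axis, count) that were at least 2-fold higher (red, to the right) or lower (blue, to the left) in members than in all other neurons of both mice 2 and 3, with the number compared written as "of n". Axis labels left of 0 are counts of lower genes. Guidance genes reached 9 of 23 higher, and inhibitory motor genes 6 of 11 lower.

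Enteric transcription factors and genes of young neurons were lower more often than higher. Over all genes compared, 4.61% were higher and 0.992% lower. Of 24 enteric transcription factor genes, 1 was higher, which is near the share over all genes, and 5 were lower. *Casz1*, a zinc finger factor, stood at 1.09, 2.27 and 3.42 UMIs per 10000 in members against 0.838, 0.650 and 1.10. *Tbx3* was 5.13-fold and 3.02-fold lower, and *Ebf1* and *St18* gave at most 4 UMIs in the members of any mouse. Of 13 genes of young neurons and progenitors, 5 were lower, among them *Dll3*, *Hes6*, *Igfbpl1* and *Sox11*, and 0 higher. The 18 pan-neuronal genes summed to 126, 117 and 109 UMIs per 10000 in members of mice 1, 2 and 3 and to 94.3, 80.9 and 82.0 in the other cells. Their median log2 difference in mice 2 and 3 was 0.17, beside 0.18 for all genes, so the higher sum does not describe the typical gene of the list. Of these genes, *Prph* and *Snhg11* were higher, *Tubb3* was lower and 15 were not called, with *Elavl4* at 0.947-fold and 0.999-fold.

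Markers of other cell types were present in members and in the other cells. The 10 glia markers summed to 17.7, 39.9 and 13.6 UMIs per 10000 in members and to 23.0, 31.1 and 24.4 in the other cells, and 0 of the 10 were called. At least 3 of them were in 50%, 80.0% and 38.7% of members, against 60.5%, 73.6% and 71.5% of the other cells. Smooth muscle markers summed to 30.2, 6.46 and 10.5 in members against 72.2, 15.5 and 10.5, with 0 of 10 called. Markers of interstitial cells of Cajal (0 of 2), fibroblasts (0 of 6) and macrophages (0 of 5) were not called, and *Kdr*, the 1 endothelial gene compared, was called on 2 UMIs in members of each of mice 2 and 3. Macrophage and endothelial markers were all at 0 in members of mouse 1.

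Pooled over mice and at unequal depth, shares of genes outside the rule changed gradually across its threshold. The 48 cells that met the other conditions with 3 of the 9 genes had *Slc5a7* in 68.8%, *Penk* in 62.5%, *Casz1* in 64.6%, *Chat* in 29.2% and *Etv1* in 43.8%. The 30 members with exactly 4 had them in 90.0%, 70.0%, 73.3%, 40.0% and 26.7%. A further 47 cells had at least 4 of the genes but also *Nos1*, and 46 had 3 or more of the genes that left cells out.

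Depth sets part of such shares, so cells were also thinned to 3000 UMIs each. In mouse 2, *Penk* was then in 8.88% of eligible cells with none of the 9 genes, in 66.7% with 3, in 77.8% with 4 or 5 and in 60.0% with 6 to 9. Mouse 3 gave 16.5%, 42.9%, 68.8% and 75.0%. *Oprk1* also rose from 3 to 4 or 5 genes in both mice (22.2% to 44.4% and 42.9% to 81.25%). Other genes differed between the mice. In mouse 2, *Slc5a7* went from 50% to 44.4%, *Casz1* from 38.9% to 27.8% and *Chat* from 16.7% to 11.1%. In mouse 3 they went from 42.9% to 81.25%, from 64.3% to 75.0% and from 35.7% to 62.5%. The unthinned shares at 4 or 5 genes were 90.0% and 63.2% for *Penk* and 25% and 63.2% for *Chat*.

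**Figure D4:**
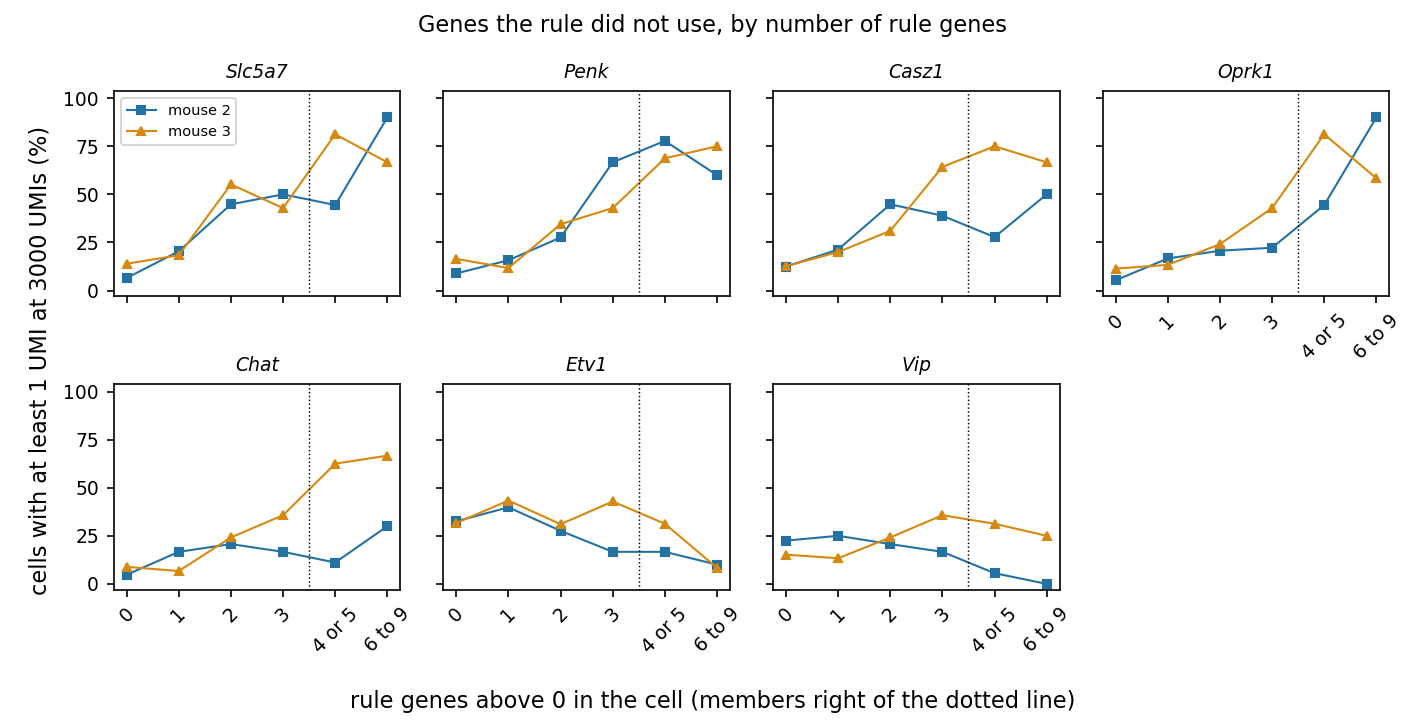
Share of cells with at least 1 UMI after thinning to 3000 UMIs (y axis, %) against the number of the 9 rule genes above 0 in the unthinned cell (x axis), for 7 genes the rule did not use, in cells without *Nos1* and with fewer than 3 exclusion genes of mouse 2 (blue squares) and mouse 3 (orange triangles). Cells right of the dotted line are members, and *Penk* was in 77.8% and 68.8% of those with 4 or 5 genes.

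Members differed among themselves by mouse and by depth. The 33 members with *Chat* came from mice 2 (11) and 3 (22) and had a median of 8189 UMIs, against 5314.5 in the 38 without. In mice 2 and 3, *Penk* summed to 23.4 and 11.9 UMIs per 10000 in those with *Chat* and to 9.58 and 4.77 in those without. *Slc5a7* stood at 5.28 and 6.39 against 4.73 and 6.37, and *Casz1* at 1.89 and 3.11 against 2.54 and 4.42. Pooled over mice, *Etv1* was in 51.5% of members with *Chat* and 23.7% of those without, so cells with *Chat* were not the ones poorest in *Etv1*. Members with at least 3 glia markers numbered 41 and had a median of 10280 UMIs, against 4955.5 in the other 30, and *Slc5a7* summed to 4.34 and 8.23 in these sets.

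Members also lay near each other when the 9 genes, the exclusion genes and *Nos1* were left out. Among the 15 nearest cells of the same library, 16.7%, 22.4% and 30.5% of the neighbours of members in mice 1, 2 and 3 were members, against 2.71%, 1.40% and 3.36% of the neighbours of other cells. Cells with *Ffar2*/*Krtdap* genes were 35.3% and 24.7% of the neighbours of members in mice 2 and 3, although they were 10.0% and 10.5% of all cells. In mouse 1 they were 2.67% of neighbours and 1.69% of cells. *Nos1* cells were under-represented among neighbours in each mouse (32.7%, 27.8% and 32.9%, against 37.9%, 54.5% and 54.7% of all cells). Genes that go with the 9 remained in this measure, so it describes the choice in part.

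The *Ffar2*/*Krtdap* cells, 180 neurons without *Nos1* and with at least 3 of the 8 exclusion genes, were the set closest to the members. Only the number of exclusion genes kept 46 of them from being members. Most members carried such genes too: 29 had 1, 29 had 2 and 13 had 0. The *Ffar2*/*Krtdap* cells numbered 6, 105 and 69 in mice 1, 2 and 3, and calls again used mice 2 and 3. In members, 544 genes (4.46%) were higher and 103 (0.845%) lower than in these cells. None of the 8 cholinergic genes was called, and *Chat* lay on opposite sides in the 2 mice, at 0.500 and 1.90 UMIs per 10000 in members against 0.833 and 0.973. *Oprk1* (1.23-fold and 1.24-fold) and *Casz1* (1.13-fold and 1.51-fold) were close as well.

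Genes of peptides, guidance and excitability were among those higher in members than in these cells. Sodium and HCN channels gave 2 of 14 higher, A-type potassium channels 2 of 8, and glutamate and GABA receptors 4 of 17. Postsynaptic genes gave 4 of 24 and guidance genes 8 of 23, beside 4.46% of all genes. *Scn3a*, *Dpp6*, *Gria2*, *Grik1*, *Nlgn1*, *Slit2* and *Gch1*, called higher against all other cells, were not called here. *Penk* was 4.82-fold and 4.29-fold higher, *Oprm1* 3.71-fold and 5.70-fold, *Epha5* 4.67-fold and 6.38-fold, and *Htr7* 7.07-fold and 5.93-fold, and *Scn2a* and *Gria1* were higher too. *Calb2*, the gene of calretinin, was lower, at 5.06 and 3.0 UMIs per 10000 in members against 15.5 and 14.5. *Sst*, the somatostatin gene, gave 0.0333 and 0.296 in members against 1.26 and 0.985. *Etv1* and *Vip* were low in both sets. Of the 11 inhibitory motor genes compared, 0 were lower in members than in *Ffar2*/*Krtdap* cells and 3 were higher. Their median log2 difference was 0.95, so low levels of these genes were not particular to members.

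**Figure D5:**
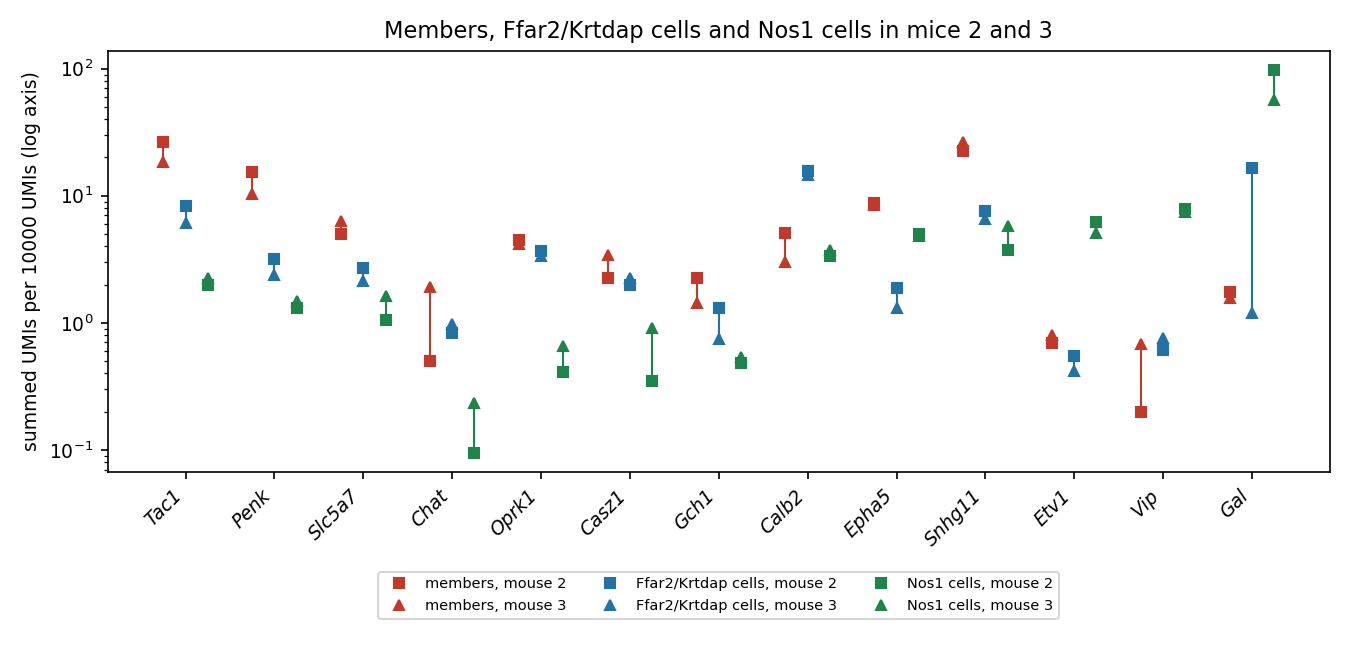
Summed UMIs per 10000 UMIs (y axis, logarithmic) of 13 genes in members (red), *Ffar2*/*Krtdap* cells (blue) and *Nos1* cells (green) of mice 2 (squares) and 3 (triangles), with a line joining the 2 mice of a set. *Calb2* stood at 5.06 and 3.0 in members and at 15.5 and 14.5 in *Ffar2*/*Krtdap* cells, and *Tac1* was used to choose the members.

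Against the 1065 *Nos1* cells, 617 genes (5.06%) were higher in members and 151 (1.24%) lower. Here 6 of 8 cholinergic genes were higher, with *Chat* at 5.25-fold and 8.11-fold, *Slc18a3* at 4.81-fold and 2.06-fold and *Slc5a7* at 4.72-fold and 3.95-fold. *Bnc2* was 4.21-fold and 5.88-fold higher and *Oprk1* 10.9-fold and 6.26-fold. The same 6 inhibitory motor genes as against all other cells were lower. All 3 comparisons use the same members, and the *Nos1* cells are the largest share of the other cells, so they are not independent of each other.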

How the data were processed

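Reads were processed by the authors with Cell Ranger (mm10, version not given in the sources used here). They filtered cells on the number of genes and on mitochondrial content, took out genes seen as confounders, and deposited natural log values of 1 plus UMIs per 10000 for the neurons. UMIs of the genes taken out (median 10.6%, 7.26% and 3.72% in members of mice 1, 2 and 3, and 11.9%, 13.6% and 12.8% in other cells) count in each cell's total.

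Whole UMIs were recovered by taking the smallest value above 0 in a cell as 1 UMI, and 100% of values and totals came out whole within 1e-06. No count model was fitted, because members were chosen on values of the cells compared. Recovered UMIs were summed over the cells of a set within a library and given per 10000. Genes with at least 50 UMIs over all cells were compared, with a floor of 3 UMIs on the denominator. Numpy 2.4.6, scipy 1.17.1 and pandas 2.3.3 were used, and the steps were tested on simulated data. Neighbours were the 15 nearest cells on 20 principal components of 2000 variable genes. Gene positions were read from GENCODE M21 (GRCm38), and the annotation used for counting is not given in the sources used here. Whether counting used strand is not given either, so UMIs of *Htr2b*, *Penk*, *Itga8*, *Casz1*, *Galntl6*, *Kcnip4*, *Lrrc7*, *Nos1*, *Ache*, *Ank1*, *Ryr1*, *Unc5c* and *B230334C09Rik*, among the genes whose positions were looked up, cannot be told from those of genes overlapping them on the other strand.

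The members and gene lists were chosen with earlier results of these data known. Named were the rule genes and label markers, the 15 higher and 8 lower genes with the largest smaller fold of mice 2 and 3 (in at least 25% of members or of other cells), and called genes of the lists, with defining genes that were not called. Scrublet in scanpy 1.11.5, run per mouse at an expected rate of 6%, marked 10 cells and 0 members as doublets, and these cells stayed in the main values. Replicates are separate mice. Alternatives were the number and choice of rule genes, *Nos1* and exclusion limits, thinning to 3000 UMIs, other comparison cells, filters, a 3-fold limit, doublets removed and each mouse left out. Some genes withheld for evaluation are not named here, though counts include them.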

Additional observations from a re-analysis of the deposited data

How the results depend on the processing

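The share of members (3.47%, mean over mice) followed the rule. It was 6.02% with 3 of 9 genes, 1.77% with 5 of 9, 2.21% with 4 of 7 genes without *Lrp1b* and *Kcnip4*, 1.02% with 2 UMIs of each gene required and 5.23% with no exclusion genes, and 2.84% to 3.79% when a mouse was left out. It moved by less than the SD over mice with 1 UMI of *Nos1* allowed, with thinned cells or with doublets removed.

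Of the 562 higher and 121 lower genes, counts went to 142 and 11 with 3 of 9 genes, when mouse 1 also had enough members for the call, to 1645 and 479 with 5 of 9, when mouse 2 alone had, and to 160 and 25 at 3-fold. The count of lower genes was 183 with means over cells, and of higher genes 325 with at least 200 UMIs. Leaving out a mouse gave 562 to 1803 higher and 121 to 781 lower genes, since 1 library then makes the call (1803 and 781 without mouse 2, 1247 and 458 without mouse 3). Against *Ffar2*/*Krtdap* cells the range was 544 to 2167, and 358 with thinned cells, and against *Nos1* cells 617 to 1864. With thinned cells, 475 genes were higher, 234 of them among the 562, and 124 were lower, 36 of them among the 121.

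The 4 kinds of alternative that follow were chosen after seeing the data. Requiring mouse 1 as well left 174 higher and 6 lower genes, cells with at most 5% mitochondrial UMIs gave 52 lower genes, and genes of at most 100 kb gave 316 higher genes. Cells with under 3 glia markers gave 615 higher genes, 248 of them among the 562, and 141 lower genes, 20 of them among the 121. That filter left 6 members in mouse 2 and 19 in mouse 3. The limit of 20 members per library was not applied to the glia and mitochondrial filters, so their counts rest on fewer cells than the main calls. The mean log2 difference over the libraries used kept its sign for *Slc5a7*, *Penk*, *Casz1* and *Bnc2* in each of 10 alternatives. It did so for *Chat* in 7, *Etv1* in 8, *Gal* in 8 and *Vip* in 5 in which both sets held at least 3 UMIs in each library used. A kept sign of the mean does not hold for each mouse. Against other cells without *Nos1*, the mean over mice 2 and 3 was 0.652 (SD 1.17) for *Bnc2* and 0.798 (SD 1.18) for *Chat*. Both SDs were larger than the means. No paired analysis was possible because the results come from no test, and members and other cells were compared within each library. Precision is limited by 10 members in mouse 1 and by genes with few UMIs.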
